A study of Mus musculus with 2 samples.

Results

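Cytosolic ribosomal protein genes encode the proteins of the large and the small subunit of the ribosomes that translate nuclear messengers in the cytoplasm. Here they were chosen by gene symbol, from the patterns Rpl or Rps followed by a number with a few set suffixes, Rplp0 to Rplp2 and Rpsa, with at least 1000 UMIs over both libraries. A UMI (unique molecular identifier) stands for 1 captured transcript. Of 28692 genes in the files, 85 symbols matched and 82 reached the minimum, 50 of the large and 32 of the small subunit. The lowest member was Rpl7l1 with 4417 UMIs, followed by Rpl6l with 22190 and Rps27l with 56799. Just outside were Rpl3l with 262 UMIs, Rpl39l with 58 and Rpl10l with 2. The rule uses no difference between the libraries, though it was set with earlier results of these data known.

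Each ribosome holds 1 copy of nearly every ribosomal protein, so cells make these proteins in matched amounts, and their messengers are among the most abundant in most cells. Many of these messengers start with a run of pyrimidines at the cap, the 5' terminal oligopyrimidine (TOP) tract, through which mTORC1 and the RNA-binding protein LARP1 control their translation as a group. A few members have paralogs (Rps27 and Rps27l, Rpl22 and Rpl22l1, Rpl36a and Rpl36al) whose balance is known to differ between cell types or with p53 activity. In lung fibrosis, activated fibroblasts make large amounts of extracellular matrix protein.

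The cells came from lungs of Lepr-Cre;Rosa26-tdTomato mice, in which Cre driven by the leptin receptor gene Lepr switches on a lasting tdTomato reporter, and both groups carried these alleles. Mice aged 8 to 10 weeks received either saline or bleomycin, which damages DNA and leads to fibrosis of the lung. Live tdTomato-positive cells were sorted after red blood cell lysis and counted by droplet sequencing of transcript 3' ends, with 1 library per group. How many mice were pooled, which dose they got and when the lungs were taken is not stated in the labels. The reporter marks present or past activity of the Lepr promoter. A Lepr UMI was found in 22.4% of saline and 6.92% of bleomycin cells, although median depth was higher after bleomycin.

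The saline library held 37570380 UMIs over 5455 barcodes and the bleomycin library 61537182 over 4473. After filtering, 5196 cells remained after saline, at a median of 6302.5 UMIs, and 4308 after bleomycin, at a median of 12300 UMIs. The libraries shared 31 cell barcodes. Cells were clustered without the ribosomal protein genes, and clusters were named from marker genes, so a class name here means cells like the named type. In their classes, Col1a1 was found in 97.6% and 99.6% of fibroblasts, Pecam1 in 94.9% and 94.6% of endothelial cells, Acta2 in 93.2% and 97.9% of smooth muscle cells and Ear2 in 98.8% and 98.2% of alveolar macrophages, saline first. Free RNA was not removed, and how much of these shares it gives was not tested. With 1 library per group, nothing can be said about the spread between mice, no test was made, and square brackets hold exact 95% intervals that cover counting error only. A level is given as UPM, the UMIs of a gene per 1000000 UMIs summed over the cells of a class and library. A ratio is the log2 of bleomycin over saline UPM with 1 UPM added to both. UPM counts 3' ends and is not scaled by gene length, so levels are compared within a gene and not between genes.

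Ribosomal protein messengers made up 9.52% to 24.6% of all UMIs among the classes with at least 50 cells after saline, lowest in ciliated cells and highest in an immune cluster led by immunoglobulin and C1q genes. Over all cells the 82 members took 6349754 of 35187931 UMIs after saline, or 18.05%, and 12007304 of 58696767 after bleomycin, or 20.5%. The 5 members with most UMIs, Rpl41, Rps29, Rpl37a, Rplp1 and Rpl39, held 12.9% of the 19354121 member UMIs in the files. After saline, ciliated cells (122 cells) had the lowest share at 9.52% [9.45 to 9.58], and pericytes (50 cells), the mural cells of capillaries, had 11.9%. Alveolar type 2 cells (310), which make surfactant, had 14.9%. Alveolar fibroblasts (1596) had 17.8%, general capillary endothelial cells (110) 17.998%, smooth muscle cells (234) 19.0% and alveolar macrophages (640) 21.3%. The median depth of these classes ran from 4168.5 UMIs in alveolar macrophages to 8101.5 in capillary cells and did not follow the order of the shares. Their median mitochondrial share was highest in alveolar type 2 cells at 4.08% and lowest in pericytes at 1.71%.

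**Figure D1:**
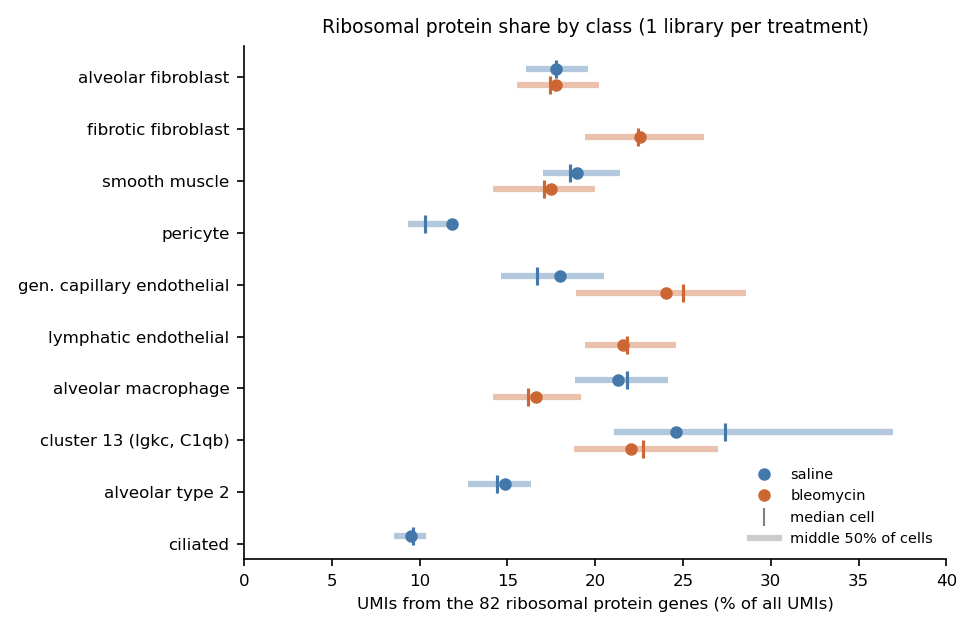
Share of UMIs from the 82 ribosomal protein genes (% of all UMIs, horizontal axis) in each class of at least 50 cells, in the saline library (blue) and the bleomycin library (orange). Dots are shares of summed UMIs, ticks the median cell and bars the middle 50% of cells, and the dots run from 9.52% in ciliated cells to 24.6% in cluster 13, both after saline.

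The direction between the libraries differed by class. The share was higher after bleomycin in fibroblasts (18.1% against 20.6%) and in endothelial cells (19.0% against 22.7%), and lower in alveolar macrophages (21.3% against 16.6%) and smooth muscle cells (19.0% against 17.5%). Among endothelial cells, the general capillary cells of cluster 15, which came from both libraries (110 and 99 cells), had 17.998% [17.92 to 18.08] and 24.03% [23.94 to 24.12] at median depths of 8101.5 and 7320.0 UMIs. Lymphatic endothelial cells had 21.6% after bleomycin (70 cells), and the only 21 of them after saline had 19.4%. Arterial endothelial cells went the other way, from 23.9% (26 cells) to 20.9% (17 cells), on groups also under the minimum. The pooled endothelial class thus held these kinds in different parts in the libraries. Cluster 13, the immune cluster led by Igkc, Igha, Jchain and the C1q genes (85 and 81 cells), had 24.6% and 22.0%. The counting intervals of each pair of shares do not overlap in these classes. Epithelial cells cannot be compared, since 5 were found after bleomycin, and pericytes fell below the minimum with 48 bleomycin cells, whose share was 15.5%.

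Fibroblasts, 3560 saline and 3515 bleomycin cells, had a ribosomal protein share of 18.13% [18.12 to 18.15] after saline and 20.63% [20.62 to 20.64] after bleomycin, a log2 ratio of 0.19. Their median depth was 6830.0 UMIs after saline and 13608 after bleomycin. In cells of 5000 to 10000 UMIs alone the shares were 17.97% (2454 cells) and 20.7% (830 cells). The middle 50% of cells ran from 16.2% to 20.2% after saline and from 16.9% to 23.7% after bleomycin, so most single cells of the libraries overlapped and the difference lay mainly in the upper part of the range. The summed level of 8 smooth muscle markers in the same fibroblasts was 469 UPM after saline and 3215 UPM after bleomycin. That of 8 immune markers was 40.2 and 23.6 UPM. The part of depth or of contractile genes in the share was not tested.

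Within the bleomycin library, fibroblast clusters differed from each other by more than the libraries did. After saline the share lay between 16.9% and 18.6% in the 5 clusters with at least 50 cells. These were cluster 0 (led by Pi16 and Adh7), clusters 1 (Inmt, Spon2) and 3 (Slc7a10, Colq), cluster 2 (Tnfaip6, Il6) and cluster 5 (Cxcl5, Cxcl9). After bleomycin it was 23.8% in cluster 21, led by the matrix genes Cthrc1, Col11a1 and Postn, and 23.7% in cluster 24, led by Cfd and Serpina3m. It was 22.9% in cluster 0, 21.5% in cluster 18 (interferon-response genes Ifit3 and Ifit1), 20.7% in cluster 17 (cell division genes such as Ube2c and Birc5) and 19.9% in cluster 23 (Anxa8, Sncg). It was 17.95% in cluster 20, led by Thbs4 and Spp1, and 17.8% in cluster 4, led by Wfdc12, Mfap4, Ces1d and Tcf21. Clusters 20 and 4, with 962 and 336 bleomycin cells, thus lay inside the saline range, and the other 6 bleomycin clusters lay above it. Few saline cells fell in clusters 4 (27 cells), 20 (22), 17 (12) and 18 (10), all under the minimum. Their shares were 15.6%, 21.9%, 17.7% and 15.3%. Median depth in these bleomycin clusters ran from 8422.5 UMIs in cluster 0 to 22185 in the dividing cells of cluster 17, and the clusters with the highest shares, 21 and 24, had 15909 and 11722.

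**Figure D2:**
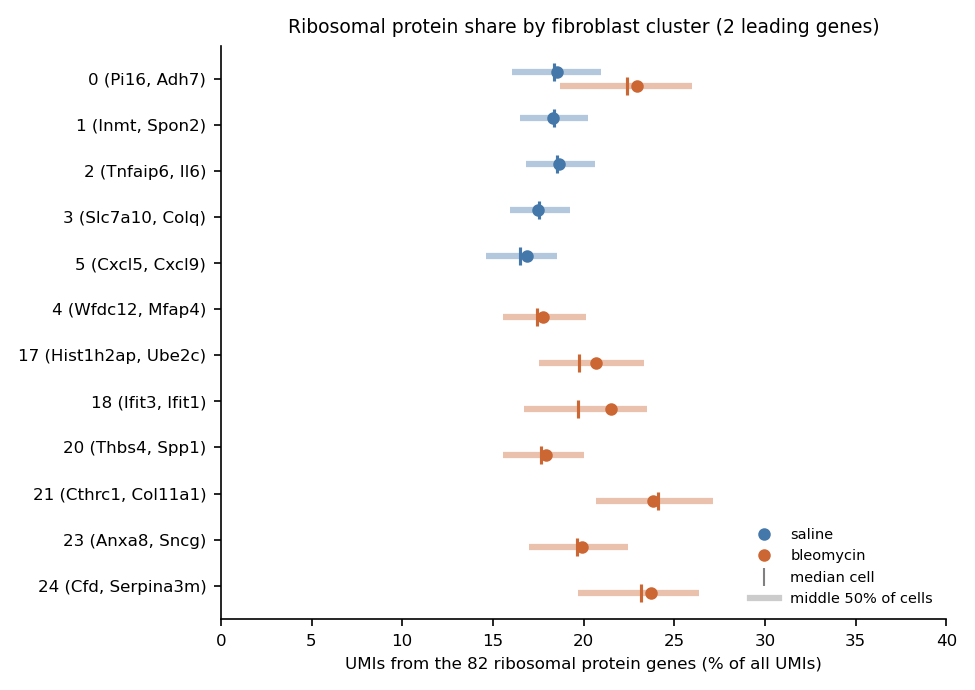
Share of UMIs from the 82 ribosomal protein genes (% of all UMIs, horizontal axis) in fibroblast clusters of at least 50 cells per library, with the 2 leading genes of each cluster. Saline (blue) lies between 16.9% and 18.6%, while bleomycin (orange) runs from 17.8% in cluster 4 to 23.8% in cluster 21.

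Narrower groups of fibroblasts could be compared in a pair of cases, though neither is shown to hold cells of 1 kind. Cluster 0 held cells of both libraries (855 and 198), and its share was 18.5% [18.50 to 18.56] and 22.9% [22.87 to 22.99], with 79 of 82 members above a log2 ratio of 0 against 38.3% of the other genes tested. Alveolar fibroblasts (1596 and 342 cells), named from markers such as Tcf21 and Inmt, were held by different clusters in the libraries: clusters 1 and 3 for saline, cluster 4 for bleomycin. Their share was 17.8% in both libraries, with 40 members above 0 and 42 below, while 54.5% of the other genes tested were above 0. The cells' median depth was 6894 and 8951.5 UMIs. Clusters 2, 5, 18 and 24 had alveolar fibroblast as the best list but leading genes of other lists, so they carry no such name. For cluster 24 the only such leading gene was Hp, of the club cell list. With them counted as alveolar fibroblasts the shares were 17.97% (2671 cells) and 22.1% (1101 cells). Cluster 20 also had this best list, but without a clear lead over other lists. Its leading genes included Spp1 and Fst of the fibrotic fibroblast list. With cluster 20 counted in as well the shares were 18.03% (2693 cells) and 19.9% (2063 cells). These wider borders were drawn after seeing the data. The alveolar comparison therefore depends on where the border is drawn. Clusters 20 and 24 held most of the bleomycin cells left out, 962 and 699.

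Member by member, 67 of the 82 genes had a ratio above 0 in fibroblasts and 15 below, with a median of 0.18. The 5799 other genes with at least 50 UMIs and 20 UPM in the library where they were higher had a median of -0.02, and 48.7% of them were above 0. All 82 members met that minimum. The members stayed close together, with an SD of 0.25 across genes against 0.92 for the other genes. The SD was 1.86 for the 105 others of at least 1000 UPM in the library where they were higher. Other genes can enter both of these sets by being high in 1 library only, so neither SD is matched to the members on abundance. The small subunit had a median of 0.22 and the large subunit 0.16. A single member, 1 of 82, passed 2-fold, while 15.2% of all tested genes did, and the same 1 of 82 lay at least 1.5-fold from the members' median, while 31.4% of all tested genes lay that far from their own.

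That member was Rplp0, the scaffold of the P stalk, a flexible arm of the large subunit that recruits the elongation factors. In fibroblasts Rplp0 was at 2051 [2033 to 2068] UPM after saline and 4177 [4160 to 4195] UPM after bleomycin, a ratio of 1.03 or 2.04-fold. The proteins that bind to it in pairs on the stalk did not share this: Rplp1 was at 4391 and 4556 UPM (0.05) and Rplp2 at 2579 and 2759 UPM (0.10). By cluster, Rplp0 lay between 1662 UPM (cluster 3) and 2513 UPM (cluster 0) after saline. After bleomycin it lay between 2606 UPM (cluster 4) and 5243 UPM (cluster 21), so the bleomycin clusters all lay above the saline clusters. In cluster 0, with cells of both libraries, Rplp0 was at 2513 and 4602 UPM (0.87), the highest ratio of any member there. In alveolar fibroblasts, where the group's share did not differ, Rplp0 was again the highest member at 1764 and 2607 UPM (0.56). There 0 of 82 members passed 2-fold and 0 of 82 departed from the members' median, against 4.75% and 14.8% of all tested genes. With clusters 2, 5, 18 and 24 counted in, Rplp0 was at 1895 and 4383 UPM (1.21, 2.31-fold), and it was the 1 of 82 members that passed 2-fold and departed, against 10.4% and 24.6% of all tested genes. With cluster 20 counted in too it was at 1920.5 and 3873 UPM (1.01), again the 1 of 82 that passed and departed, against 11.6% and 24.8%. The fold of Rplp0 in fibroblasts lies just past the limit of 2-fold, and with cells thinned to 2000 UMIs or restricted to 5000 to 10000 UMIs no member passed it.

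**Figure D3:**
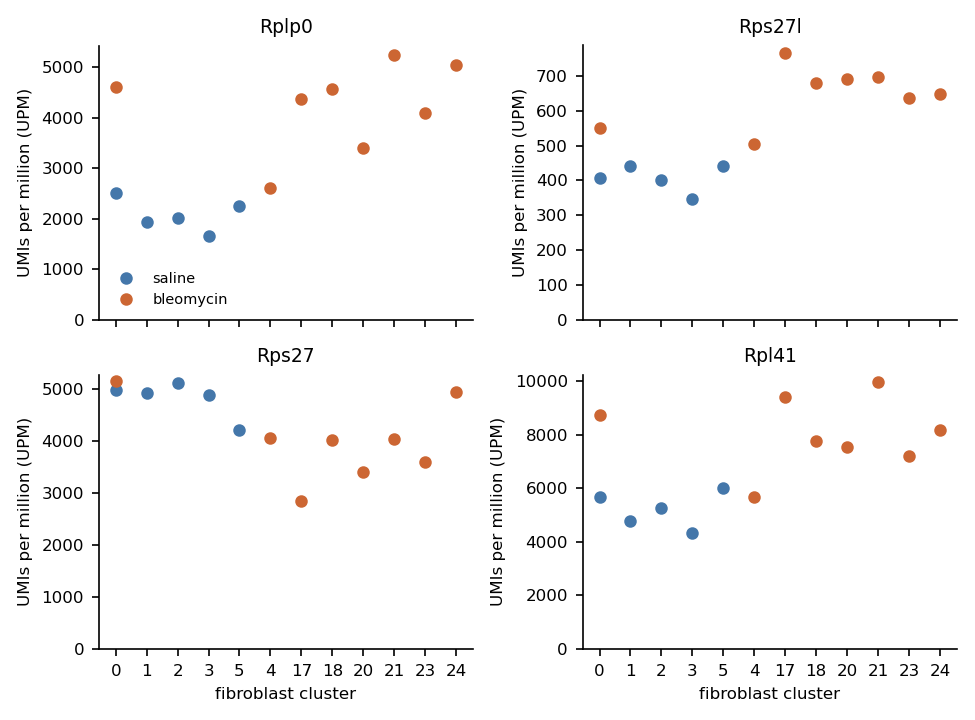
Level of Rplp0, Rps27l, Rps27 and Rpl41 in UMIs per 1000000 UMIs (UPM, vertical axes) in each fibroblast cluster of at least 50 cells, saline in blue and bleomycin in orange. Rplp0 and Rps27l lie higher in every bleomycin cluster shown than in every saline cluster, while Rps27 lies between 2855 and 5161 UPM after bleomycin and overlaps with saline.

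The next highest ratios in fibroblasts belonged to proteins of both subunits. Rps27l, a paralog of Rps27 that p53 is known to induce, was at 400.5 and 662 UPM (0.72), and Rpl10a was at 1351 and 2201 UPM (0.70). Rpl41, a peptide of very few residues and the member with most UMIs in the files (706400), was at 5134 and 7995 UPM (0.64). Rpl32 was at 2423 and 3773 UPM (0.64). Rps2 (0.62), Rps18 (0.61) and Rpl12, a protein at the base of the stalk (0.58), came after them. None of these passed 2-fold.

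At the lower end, the zinc-finger protein gene Rps27 was at 4907 UPM after saline and 3860 UPM after bleomycin (-0.35), and Rps21 at 2051 and 1672 UPM (-0.29). Rps29 was at 5241 and 4343 UPM (-0.27), Rpl10 at 3447 and 3007 UPM (-0.20) and Rpl35a at 3058 and 2714 UPM (-0.17). Rps27, Rps29 and Rps21 are small proteins of the small subunit, so this subunit supplied both the 3 lowest ratios and, with Rps27l, the second highest. Of the members with most UMIs, Rpl37a (4121 and 4747 UPM, 0.20) and Rpl39 (3873 and 4663 UPM, 0.27) stayed near the members' median, whereas Rpl41 and Rps29 lay on opposite sides of it. Rplp1, at 0.053, lay just below the members' lowest quartile of 0.060.

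Members of the short lists for Mdm2 binding and ubiquitin fusion lay near the members' median. Rpl5 and Rpl11, which with 5S rRNA bind Mdm2 when ribosome assembly is disturbed, were at 602 and 709 UPM (0.24) and at 1911 and 2214 UPM (0.21). Rpl23, which can also bind Mdm2, was at 2328 and 2833 UPM (0.28). Mdm2 (30.1 and 40.2 UPM, 0.41) and Trp53 (47.8 and 59.9 UPM, 0.32) of the same list, which are no members, were higher by less than 2-fold too. Rps27a, made as a fusion with ubiquitin, was at 2321 and 2812 UPM (0.28). Fau, whose small-subunit protein is also made as a fusion and which the name rule leaves out, was at 2168 and 2217 UPM (0.03).

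**Figure D4:**
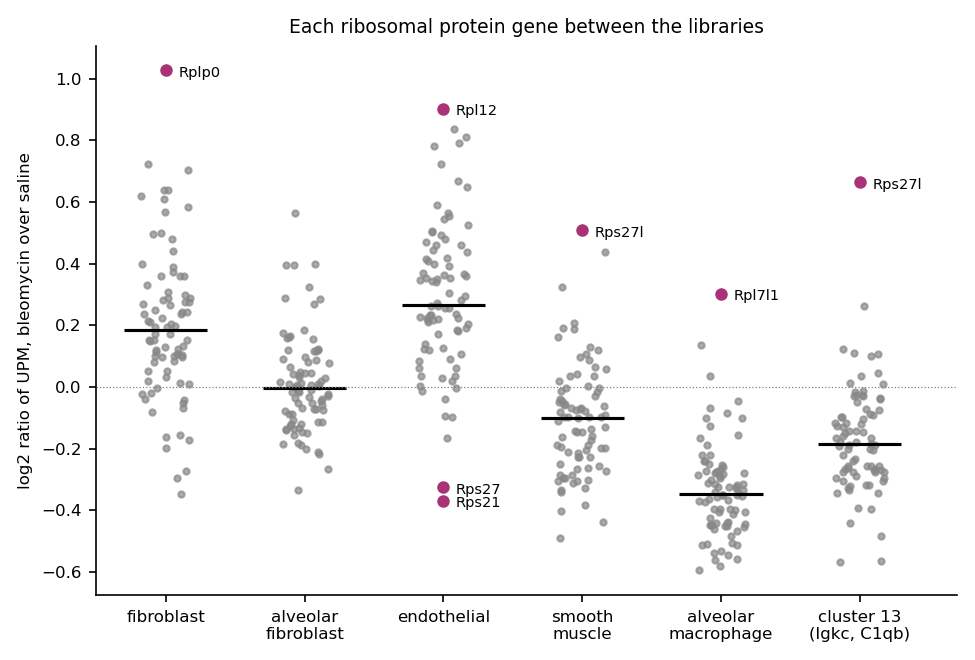
Log2 ratio of UPM, bleomycin over saline (vertical axis), for each member with at least 50 UMIs and 20 UPM in 6 groups of cells; the black line is the members' median and coloured points lie at least 1.5-fold from it. The medians run from 0.27 in endothelial cells to -0.35 in alveolar macrophages, and 1 to 3 members stand apart in every group but alveolar fibroblasts.

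In alveolar macrophages nearly the whole group was lower after bleomycin: 79 of 82 members had a ratio below 0, with a median of -0.35. The 5089 other genes tested had a median of -0.11, and 39.5% of them were above 0. The median of all tested genes was itself -0.12 here. The cells were 640 after saline, mostly from clusters 7 (Fabp1, Krt79) and 9 (Mmp12, Ccl17), and 331 after bleomycin, mostly from cluster 22 (Wfdc21, Tyrobp). By cluster the share was 21.9% in cluster 7 and 18.5% in cluster 9 after saline, and 16.4% in cluster 22 after bleomycin. Within a cluster the libraries lay closer: the few bleomycin cells of cluster 9 (20 cells) had 18.01% and those of cluster 7 (9 cells) 20.6%. The few saline cells of cluster 22 (5 cells) had 18.2%. In each of these clusters the share was lower after bleomycin, on groups under the minimum. None of the 82 members passed 2-fold (7.89% of all tested genes did) and 1 of 82 departed from the members' median (20.9% of all tested genes). The departing member was Rpl7l1, a paralog of Rpl7 that works in ribosome assembly, at 34.3 and 42.5 UPM on 101 and 99 UMIs, and its ratio of 0.30 has a counting interval of -0.11 to 0.72. The only others above 0 were Rps2 (1814 and 1993 UPM, 0.13) and Rps27l (734 and 752 UPM, 0.03). The lowest were Rpl10 (3814 and 2528 UPM, -0.59) and Rps20 (2277 and 1524 UPM, -0.58). Rplp0 went with the group here, from 1993 to 1557 UPM.

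Median depth in the macrophages was 4168.5 UMIs after saline and 6707 after bleomycin, and the median mitochondrial share 2.36% and 2.87%. In cells of 5000 to 10000 UMIs the shares were 20.96% (196 cells) and 16.9% (232 cells). The summed level of 8 fibroblast markers in them was 439 and 702 UPM, with all 8 found in both libraries. That of 8 epithelial markers was 450 and 139 UPM, and 4 of them, among them Krt8 and Cldn18, were at 0 after bleomycin. The part of RNA from other cells in the difference was not tested.

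Endothelial cells (157 and 186) showed the group higher, with 74 of 82 members above 0, against 58.9% of the other genes tested. The members' median was 0.27, against 0.13 over all tested genes. No member passed 2-fold (18.8% of all tested genes did), and 3 of 82 departed from the median (37.5% of all tested genes). Rpl12 was at 876 and 1638 UPM (0.90), Rps21 at 1995 and 1545 UPM (-0.37) and Rps27 at 5516 and 4401 UPM (-0.33). In the general capillary cells alone, 80 of 82 members were above 0 against 47.0% of other genes, the median was 0.41, and Rplp0 was the highest at 2075 and 4054 UPM (0.97). Rps27 was at 5109 and 5568 UPM there (0.12), while lymphatic cells, found mostly in the bleomycin library, were at 3199.6 UPM. Fibroblast markers summed to 1434 UPM in saline and 411 UPM in bleomycin endothelial cells, and their part was not tested.

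Smooth muscle cells (234 and 142) had 63 of 82 members below 0, while 58.4% of the other genes tested were above 0. The members' median was -0.10, against 0.08 over all tested genes. None of 82 passed 2-fold (9.13% of all tested genes) and 1 of 82 departed (24.3% of all tested genes). It was Rps27l, at 407 and 579 UPM (0.51), with Rplp0 next at 2271 and 3075 UPM (0.44) and Rps21 lowest at 2271 and 1618 UPM (-0.49). The cells came from clusters 12 (Hhip, Ngb) and 14 (Actc1, Myh11), and cluster 12 gave 132 of the saline and 43 of the bleomycin cells. Within cluster 14 (102 and 99 cells) the shares were 18.2% and 16.5%, and in cluster 12 they were 19.9% and 19.7%. Haemoglobin genes were among the leading genes of cluster 14, and the summed erythroid and platelet markers of smooth muscle cells were 3.78 UPM after saline and 3352 UPM after bleomycin. Their part in the lower share was not tested.

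Cluster 13 had 71 of 81 tested members below 0 and a median of -0.19, while 57.0% of the other genes tested were above 0. None of 81 passed 2-fold and 1 departed, against 26.9% and 44.8% of all tested genes. Rps27l departed again, at 386 and 612 UPM (0.66), and Rps27 was the lowest member at 6433 and 4340.1 UPM (-0.57). B and plasma cell markers summed to 51860 UPM in its saline cells and 3325 UPM in its bleomycin cells, so the makeup of this cluster differed between the libraries.

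Across classes within a library, most members kept a like part of the group's UMIs. Each member was taken as a percent of all member UMIs of a class and set against its percent in all cells of that library. Only values with at least 50 UMIs, counted or given by the percent in all cells, were called. After saline 5 of 82 members lay at least 2-fold away in any of 9 classes, against 55.8% of all genes tested. After bleomycin it was 1 of 82, against 40.9%. Ciliated cells, alveolar type 2 cells and pericytes were classes after saline only, so the counts do not cover the same classes. All cells were mostly fibroblasts, so fibroblast classes had less room to depart. Between classes the range was wider: after saline, Rps27l ran from a log2 of -0.60 to 1.49 against all cells, and Rpl21 from -1.16 to 0.83. In saline alveolar macrophages Rpl21 was 0.640% of member UMIs against 1.43% in all cells and Rpl4 0.372% against 0.762%. In the same cells after bleomycin Rplp0 was 0.936% against 1.959% in all bleomycin cells, and in saline macrophages it was 0.935%, so its part in the macrophages' own members was nearly the same in both libraries. In ciliated cells Rpl41 was 9.24% of member UMIs against 3.19%, and Rps27l 0.667% against 0.237%. In alveolar type 2 cells Rpl36al was 0.621% against 0.294%. Rpl7l1 was under the UMI minimum in pericytes (18 UMIs, 2.34 times its percent in all cells) and in saline cluster 13 (19 UMIs, 0.479 times). As a level Rpl41 was at 8795 UPM in ciliated cells. That is below the 10318 UPM of saline alveolar macrophages and above the other saline classes compared, which lay between 4239 and 7221 UPM, and the 5753 UPM of all saline cells.

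Among the paralog pairs, Rps27l and Rps27 differed most between the libraries in fibroblasts. Rps27l was 7.55% [7.41 to 7.69] of the UMIs of Rps27l and Rps27 in saline fibroblasts and 14.6% [14.5 to 14.8] in bleomycin fibroblasts. By kind or cluster it was 7.26% and 11.0% in alveolar fibroblasts, 7.54% and 9.63% in cluster 0, and 16.9% in fibrotic fibroblasts (clusters 17 and 21) after bleomycin. It was higher after bleomycin in every class compared, by the least in capillary cells, where 6.07% [5.43 to 6.75] and 7.18% [6.49 to 7.92] overlap in their intervals. Alveolar macrophages had 15.9% and 22.1%, smooth muscle cells 8.23% and 13.3%, and cluster 13 5.66% and 12.4%. Among classes with at least 50 cells in only 1 library, the highest percents were 19.6% in lymphatic endothelial cells after bleomycin and 18.6% in ciliated cells after saline. As a level, Rps27l was at 346 to 443 UPM in the saline fibroblast clusters and at 504 to 766 UPM in the bleomycin ones, highest in the dividing cells of cluster 17, where Rps27 was lowest at 2855 UPM.

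Rpl22l1 encodes a protein that can replace that of Rpl22, and it is known to be repressed by Rpl22. Counts of different genes are not compared as levels, so the percents are read between classes and libraries only. Rpl22l1 was 48.5% of the pair in saline and 53.2% in bleomycin fibroblasts. It was 52.6% and 61.0% in cluster 0 and 44.2% and 46.0% in alveolar fibroblasts. Alveolar macrophages had lower percents, 32.9% and 38.4%. Capillary cells had 38.2% and 38.5%, which do not differ beyond their counting intervals. Cluster 13 went the other way, from 40.1% to 36.2%, with intervals that overlap. Rpl36al, a relative of Rpl36a, was 23.7% and 25.7% of its pair in fibroblasts, 31.3% and 33.3% in alveolar macrophages, and 44.4% and 45.7% in saline alveolar type 2 and ciliated cells. Rpl7l1 was 2.58% and 2.51% of the UMIs of Rpl7l1 and Rpl7 in fibroblasts.

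**Figure D5:**
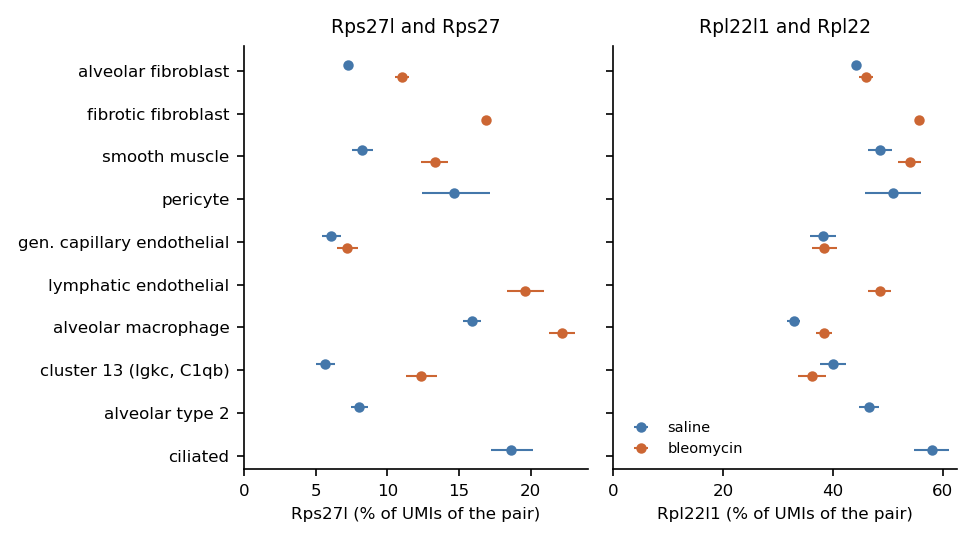
Rps27l as a percent of the UMIs of Rps27l and Rps27 (left) and Rpl22l1 as a percent of those of Rpl22l1 and Rpl22 (right), by class, saline in blue and bleomycin in orange, with exact 95% binomial intervals that cover counting error only. Rps27l runs from 5.66% in saline cluster 13 to 22.1% in bleomycin alveolar macrophages.

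Counts of several members are uncertain because the genome holds near-identical copies that were counted apart. For 16 members, 25 other counted genes were at least 95% identical over at least 200 of the last 300 bases of the transcript, and these copies held 389469 UMIs. For Rps27, Rps12, Rpl23a and Rpl36 the percent counted to the copy did not overlap between saline and bleomycin classes. Rps27rt, identical to Rps27 over 300 bases, took 15.4% to 17.6% of the UMIs of the pair in 8 saline classes and 11.8% to 12.7% in 7 bleomycin classes. Rps12-ps3 took 24% to 26.00% and 18.4% to 19.9% of its pair with Rps12, and Rpl23a-ps3 11.6% to 15.01% and 9.62% to 10.4% of its pair with Rpl23a. Rpl36-ps3 took 5.10% to 7.44% and 3.83% to 4.96%. The ranges of Rpl6l overlapped. This member, whose transcript end is identical to that of Rpl6, took 8.33% to 11.3% and 7.84% to 8.63%. The copy Gm10076 of Rpl41 did not show this, with 14.3% to 16.8% and 14.2% to 16.8%. Values for Rpl6l and Rpl6 cannot be told apart. In fibroblasts, adding the copies changed the ratio of Rps27 from -0.35 to -0.41, of Rps12 from 0.21 to 0.11, of Rpl41 from 0.64 to 0.61 and of Rpl23a from 0.02 to -0.05.

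Sequence around the start site was available from RefSeq on build GRCm38.p6, the assembly called mm10 in the files, for 61 of the 82 members. A pyrimidine tract, taken as a C followed by further C or T to a length of at least 8 on the sense strand, lay within 20 bases before to 30 bases after an annotated start in 54.1% of them, against 16.96% of 26964 other genes and 14.9% of all starts. Over the 300 bases from 250 before to 50 after the start, on either strand, the ETS family motif CCGGAAG was in 41.0% of members and 9.86% of other genes, the SP1 motif GGGCGG in 63.9% and 38.1%, the YY1 motif GCCATCTT in 9.84% and 3.17%, and the TATA motif TATAAA in 11.5% and 15.7%. The reverse of the ETS motif, CTTCCGG, begins with pyrimidines and can overlap a tract. Windows of 40 bases, from 15 before the start, show the tract in Rpl15 and Rplp2 and in both paralogs of the Rps27 pair. They show no match in Rplp0 and Rpl41, which had the highest ratio and the most UMIs. Capitals mark the tract.
Rpl15, chr14:18270962-18271001, minus strand: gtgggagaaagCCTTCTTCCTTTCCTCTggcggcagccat
Rplp2, chr7:141447636-141447675, plus strand: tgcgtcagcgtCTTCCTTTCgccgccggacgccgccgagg
Rps27, chr3:90213624-90213663, minus strand: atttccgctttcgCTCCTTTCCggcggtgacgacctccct
Rps27l, chr9:66946071-66946110, plus strand: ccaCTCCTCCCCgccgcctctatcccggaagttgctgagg
Rplp0, chr5:115559452-115559491, plus strand: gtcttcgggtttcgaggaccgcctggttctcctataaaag
Rpl41, chr10:128549144-128549183, minus strand: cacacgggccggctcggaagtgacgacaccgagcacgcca
The tract begins 4 bases before the annotated start in Rpl15 and Rplp2, 2 before in Rps27 and 12 before in the first of the annotated starts of Rps27l. The absence of these letters in a window says nothing about where transcription begins in these cells. Members with and without the tract had like ratios: in fibroblasts a median of 0.19 over 33 members and 0.18 over 28, and in alveolar macrophages -0.35 and -0.33. Split by the ETS motif, the medians were 0.24 over 25 members with it and 0.13 over 36 without in fibroblasts, -0.35 and -0.33 in alveolar macrophages, and 0.27 and 0.25 in endothelial cells.

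Other genes of the translation machinery gave the following values in fibroblasts, where all tested genes had a median of -0.01, 48.7% of the genes that are no members were above 0 and 15.2% of all tested genes passed 2-fold. Of 19 genes for elongation factors and other TOP messengers, 15 were above 0, the median was 0.26, 0 passed 2-fold higher and 1 lower. That one was Eif4a2, an RNA helicase of translation initiation, at 407 and 129 UPM (-1.65). Gnb2l1, the older symbol of the ribosome-bound scaffold Rack1, was at 507 and 849 UPM (0.74), Eef1b2 at 395 and 617 UPM (0.64) and Hnrnpa1 at 126 and 190.4 UPM (0.59). Of the 30 ribosome biogenesis genes 18 met the minimum, 14 were above 0 and none passed 2-fold, with a median of 0.24. Nhp2, of the small nucleolar RNA complexes that modify rRNA, was at 51.2 and 101 UPM (0.96), Pno1 at 18.2 and 32.6 UPM (0.81), Gnl3 at 33.5 and 50.7 UPM (0.58) and Nob1 at 17.97 and 27.4 UPM (0.58).

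Of 18 genes that control ribosomal protein messengers or belong to the mTORC1 pathway, 9 met the minimum, 7 were above 0 and 2 passed 2-fold higher, against 15.2% of all tested genes past 2-fold either way. These were Ddit4, an inhibitor of mTORC1, at 19.8 and 63.0 UPM (1.62), and Eif4ebp1, a translation repressor that mTORC1 inactivates, at 193 and 400.2 UPM (1.05). Myc was at 17.5 and 33.3 UPM (0.89) and Akt1s1 at 54.0 and 77.6 UPM (0.52). Proteins of the mitochondrial ribosome, a separate set encoded in the nucleus, had 61 of 69 tested genes above 0 and a median of 0.28 with 0 past 2-fold, with Mrpl20 (0.88), Mrpl57 (0.79), Mrpl33 (0.69) and Mrps18c (0.67) highest. In alveolar macrophages these lists parted: the mitochondrial ribosomal proteins had a median of 0.13, while elongation factors and TOP messengers had -0.39. Of the latter 1 of 19 was above 0, against 39.5% of the tested genes there that are no members.

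Over 17 pools of cell class and library, the non-member genes whose log2 UPM followed the summed member UPM most closely, out of 2274 compared, included Eef1b2 (Pearson r 0.96), Tpt1 (0.95), Gnb2l1 (0.88), Gm10036 (0.80), Eif3f (0.78), Eif3k (0.78), Eef1a1 (0.78), Nsa2 (0.77) and Npm1 (0.77). Pools of 1 library share its depth and preparation, and the values are a description of these pools. Eef1b2, the closest, ran from 210.2 to 778 UPM over them.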

How the data were processed

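Droplet libraries of sorted lung cells (10x 3' v2) were read from the deposited UMI counts per gene and barcode, which the authors made with Cell Ranger 2.1.1 on mm10, per the submitters' processing notes. The annotation release is not named there. Cells with at least 500 genes and 1000 UMIs and at most 10% mitochondrial UMIs were kept. Scrublet's automatic threshold marked 8 and 4 cells, too few to be trusted, so the 236 and 160 cells with the highest scores were left out. Free RNA was not removed. Clusters came from 2000 variable genes, members left out, 30 components, 15 neighbours and Leiden resolution 1, with no integration of the libraries, and the cutoffs for naming were set once the clusters had been looked at.

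UMIs were summed per class and library. A gene was tested for size with at least 50 UMIs and 20 UPM in the library where it was higher, and passed at 2-fold. A member departed at 1.5-fold from the members' median ratio. Named members are those that passed 2-fold or departed, in fibroblasts also the 5 highest and 5 lowest ratios and the 5 with most UMIs, and those of the role lists. From other lists up to 4 genes with the largest ratios were named, and genes from the 10 most like the summed members. Values of a few genes that these rules name are not reported here. A few further members, such as Rplp0 in other classes, are given to follow a named gene. The members and lists were chosen with earlier results of these data known. Intervals are exact (Poisson for levels, Clopper-Pearson for shares) and cover counting error only. Copies were found with BLAST+ 2.17.0. Other tools were Python 3.11.15, scanpy 1.11.5, numpy 2.4.6, scipy 1.17.1, pandas 2.3.3, leidenalg 0.10.2 and matplotlib 3.10.9.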

Additional observations from a re-analysis of the deposited data

Results flagged for a closer look

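The ribosomal protein share moved in opposite directions in classes that hold no cell in common. Its log2 ratio, bleomycin over saline, was 0.186 in fibroblasts and 0.252 in endothelial cells, and it was -0.117 in smooth muscle cells, -0.357 in alveolar macrophages and -0.158 in cluster 13. Each class had 1 library per group, and the difference between the classes was not tested.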

How the results depend on the processing

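No share ratio changed sign under any alternative that was run. No paired analysis was possible because each group had 1 library, and leaving out a library would leave nothing to compare. Log2 ratios of the share are given for all cells, fibroblasts and alveolar macrophages, which were 0.181, 0.186 and -0.357. A strict filter on barcodes gave 0.177 in all cells and 0.201 in fibroblasts. With the highest Scrublet scores kept in, fibroblasts had 0.184 and macrophages -0.315, and with each library clustered alone macrophages had -0.338. Thinned to 2000 UMIs a cell, all cells had 0.136 and fibroblasts 0.170. With UMIs of non-member genes as denominator the values were 0.224, 0.231 and -0.440, without mitochondrial UMIs 0.177, 0.185 and -0.351, and centred on the median non-member 0.192, 0.206 and -0.243. The mean over cells was 0.136 in all cells and 0.170 in fibroblasts. In cells of 5000 to 10000 UMIs the values were 0.152, 0.205 and -0.312, and with near-identical copies added 0.174, 0.180 and -0.363. These last alternatives were chosen after seeing the data. The count of members past 2-fold in fibroblasts went from 1 to 0 when cells were thinned and in cells of 5000 to 10000 UMIs. That of departing members went from 1 to 16 of 82 at a limit narrower than 1.5-fold, and to 0 at a limit of 2-fold. The share of all tested genes that far from their own median was computed at 1.5-fold only, where it was 31.4%. At the narrower limit that share cannot be lower, so the 16 members do not by themselves show that the group broke up. Keeping the members in the clustering, other minima for a member, a prior of 0.1 UPM and leaving out the cell cycle cluster moved no ratio by more than its counting interval and no count by over 1.5 times. The cause of these shifts was not tested. Depth limits the rarest member, Rpl7l1, with 101 and 99 UMIs in macrophages, and the classes under 50 cells.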

Other observations

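Rpl3l, a paralog of Rpl3 known from striated muscle, fell short of the minimum for members with 262 UMIs and was looked at after its values were seen. Alveolar macrophages held 117 of its 121 UMIs in saline cells and 120 of its 128 in bleomycin cells, at 39.8 and 51.5 UPM. Fibroblasts, with far more cells, held 1 and 5.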
